A study of Mus musculus with 6 samples.

Results

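The genes described here are 10 markers of mesothelium, the sheet of flat epithelial cells that covers the organs and the fat of the body cavities. They were taken by gene symbol from the authors' expression table (Msln, Upk3b, Lrrn4, Wt1, Krt19, Upk1b, Gpm6a, Bnc1, Krt7 and Krt8), and all 10 were found among its 19928 genes. RNA of adipose tissue from KM mice was sequenced in 6 libraries. In 3 of them (RAS 1 to 3) the mice had been fed RAS, the root of Angelica sinensis, at 10.00 g per kg of body weight, and in the other 3 (control 1 to 3) the diet label reads control; the series title places the study in mice on a high-fat diet. Each library was made from oligo(dT)-enriched mRNA. The labels give no age, sex or fat depot and do not say whether a sample is 1 animal or a pool. The p-values therefore speak of the spread among these samples alone, part of which may be technical.

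Mesothelium grows on visceral fat depots and not on fat under the skin, and its cells carry features of both epithelium and mesenchyme: simple keratins, apical membrane glycoproteins and the transcription factor WT1. In the mouse embryo, WT1-expressing mesothelium has been described as a source of visceral fat cells. Mesothelial RNA in whole fat therefore comes from a thin surface layer mixed with fat cells, vessels and stroma. In such bulk tissue, fewer cells of a type and less RNA per cell cannot be told apart.

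All 10 genes were measured well above zero, with mean levels over the 6 libraries of 2.99 FPKM (Bnc1) to 67.4 FPKM (Upk3b); FPKM is a fragment count scaled to transcript length and library depth, so levels can be set side by side between genes. The label mesothelium was read beside 14 genes of epithelia in general. Of these, 13 had a mean under 1 FPKM, among them Epcam at 0.0625 to 0.993 FPKM, Cdh1, the epithelial cadherin, at 0 to 0.0741 FPKM, and Trp63, a factor of layered epithelia, at 0.432 to 0.824 FPKM with RAS and at 2.04, 0.497 and 0.626 FPKM in control 1 to 3. The other gene, Prom1, a membrane protein of epithelia and stem cells, was at 9.67, 1.33 and 7.87 FPKM with RAS and at 1.20, 2.56 and 7.54 FPKM in control, levels that reach above those of Bnc1 and Krt8. Calb2, the calretinin gene used as a mesothelial marker in human pathology, was listed at 0 in 5 libraries and at 0.0414 FPKM in control 1. Of 4 genes listed for fat under the skin, Tbx15 was at 0 to 0.0605 FPKM, En1 at 0 to 0.0564 FPKM and Shox2 at 0.152 to 1.16 FPKM, but Hoxc10 was at 5.70 to 8.68 FPKM. Tcf21 and Hoxc8, listed for visceral fat, were at 6.40 to 11.1 and 7.72 to 13.9 FPKM.

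Depth was even, with 14.4 to 15.7 M reads assigned to genes per library, and 12462 to 12641 genes reached 1 FPKM. Control 1 stood apart for a set of genes: 136 genes lay in control 1 under 1/2 of their level in every other library, against 27 to 51 such genes for each of the other 5 libraries. All 10 mesothelium genes were lowest in control 1. Each group difference is therefore given with and without that library.

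Of the surface proteins, Upk3b had the highest level. Upk3b, uroplakin 3b, belongs to a family first known from bladder lining (GRCm38, chr5:136038496-136044993, plus strand) and was at 45.3, 74.9 and 67.9 FPKM in RAS 1 to 3 and at 11.7, 88.7 and 116 FPKM in control 1 to 3. It was the highest of the 10 genes in each library and made up 31.2 to 39.2% of their summed FPKM. Controls 2 and 3 lay above all RAS libraries and control 1 below all of them, so the groups overlapped. Msln encodes mesothelin, a lipid-anchored surface glycoprotein that binds the mucin MUC16 (chr17:25748613-25754327, minus strand), and was at 15.4, 26.7 and 29.8 FPKM with RAS and at 4.98, 24.5 and 34.7 FPKM in control. Its RAS 2 and RAS 3 values lay between those of controls 2 and 3. Upk1b, a tetraspanin that pairs with uroplakin 3 proteins in bladder lining (chr16:38773184-38800203, minus strand), was at 9.81, 11.3 and 16.3 FPKM with RAS and at 2.94, 20.5 and 24.1 FPKM in control.

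Gpm6a and Lrrn4, membrane proteins also known from neurons, followed the same library order at the low end. Gpm6a, a proteolipid family glycoprotein, was at 15.5, 18.8 and 25.3 FPKM with RAS and at 3.31, 22.3 and 26.8 FPKM in control. Lrrn4, a leucine-rich repeat transmembrane protein (chr2:132868516-132880862, minus strand), was at 8.56, 17.3 and 10.0 FPKM with RAS and at 3.03, 14.5 and 16.2 FPKM in control. Lrrn4 was the member whose highest library was a RAS library, RAS 2. The Gpm6a locus (chr8:54779434-55060878, plus strand) overlaps 7 other GENCODE genes, among them Wdr17 on the other strand. Since no stranded protocol is described, reads of Gpm6a and Wdr17 cannot be told apart where they overlap.

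RefSeq promoter windows (GRCm38.p6, 250 bases before to 50 after a gene start) were found for 6 of the 10 genes: Upk3b, Lrrn4, Gpm6a, Bnc1, Krt7 and Krt8. They were searched on both strands for GGAATG, the core letters bound by TEAD factors; GTGGGAG, the core of a WT1 motif; GGGCGG, the GC box; and TATAAA, the TATA box, motifs that do not contain each other. The 250 upstream bases of the 3 genes with GGAATG or its complement CATTCC are shown, with the match in capitals. This motif was chosen for display, and the GC box, also shared by 3 genes, is not marked. They lie at chr5:136038246-136038495 (plus strand) for Upk3b, chr2:132880863-132881112 (minus strand) for Lrrn4 and chr8:54779184-54779433 (plus strand) for Gpm6a.
Upk3b: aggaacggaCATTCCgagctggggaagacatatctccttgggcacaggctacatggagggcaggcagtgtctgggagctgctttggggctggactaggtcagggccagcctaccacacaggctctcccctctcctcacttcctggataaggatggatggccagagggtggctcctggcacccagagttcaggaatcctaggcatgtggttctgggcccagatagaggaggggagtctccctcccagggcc
Lrrn4: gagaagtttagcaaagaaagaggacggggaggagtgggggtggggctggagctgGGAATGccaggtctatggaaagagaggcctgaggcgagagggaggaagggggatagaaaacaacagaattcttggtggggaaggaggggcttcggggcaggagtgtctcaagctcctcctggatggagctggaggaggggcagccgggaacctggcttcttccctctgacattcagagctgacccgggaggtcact
Gpm6a: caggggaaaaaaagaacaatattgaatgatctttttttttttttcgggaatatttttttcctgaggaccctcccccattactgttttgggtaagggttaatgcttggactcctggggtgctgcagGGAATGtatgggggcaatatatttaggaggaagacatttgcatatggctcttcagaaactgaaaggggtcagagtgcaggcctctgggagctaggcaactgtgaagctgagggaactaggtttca
Counted from the gene start, the match began at base -241 of Upk3b, -196 of Lrrn4 and -125 of Gpm6a. The 6 genes have 7 windows, since Gpm6a has 2. GGAATG or its complement was in 3 of the 7 and in 14.7% of all 32851 RefSeq windows. The GC box was also found in 3 of the 7 (Bnc1, Gpm6a and Krt7), against 35.7% of all windows. The TATA letters were in 2 of the 7 (Krt8, and the second start of Gpm6a), against 13.6%. GTGGGAG was in 0 of the 7 windows and in 9.73% of all windows. For Bnc1 and both starts of Gpm6a, the bases just after the start were not found in a GENCODE M21 transcript of the gene. These are matches of letters in short windows and say nothing of binding.

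The 2 transcription factors differed in how low control 1 lay. Wt1, the zinc finger factor that marks mesothelium and also stromal progenitors of visceral fat in mice (chr2:105126529-105173614, plus strand), was at 5.05, 8.38 and 6.85 FPKM with RAS and at 3.73, 11.3 and 17.1 FPKM in control. Bnc1, a zinc finger protein of epithelia and germ cells (chr7:81966662-81992299, minus strand, overlapping 4833418N17Rik), was at 2.53, 3.31 and 2.80 FPKM with RAS and at 0.668, 3.49 and 5.12 FPKM in control. Both had RAS libraries between control 1 and the other controls. Wt1 in control 1 was at 44.5% of the median of the other 5 libraries, the highest such share among the members, and Bnc1 at 20.2%.

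Keratins 7 and 8 are type II chains and keratin 19 a type I chain of the intermediate filaments of simple epithelia. Krt19 (chr11:100140810-100145919, minus strand) was at 15.0, 19.6 and 25.1 FPKM with RAS and at 4.64, 37.3 and 40.7 FPKM in control. Krt7 (chr15:101412403-101427806, plus strand) was at 4.82, 7.12 and 12.5 FPKM with RAS and at 1.87, 12.0 and 16.8 FPKM in control. Krt8 (chr15:101996711-102004342, minus strand, overlapping Gm36026) was at 2.63, 3.62 and 6.36 FPKM with RAS and at 0.534, 7.27 and 6.77 FPKM in control. Among RAS libraries, RAS 3 was highest for all 3 keratins and RAS 1 lowest. The value of Krt8 in control 1 rested on 17 reads (exact 95% Poisson interval 9.90 to 27.2, counting error only) and is the least precise here; that of Upk3b rested on 327 reads. GENCODE M21 names 1 processed copy of Krt8, so some of its reads may be shared.

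**Figure D1:**
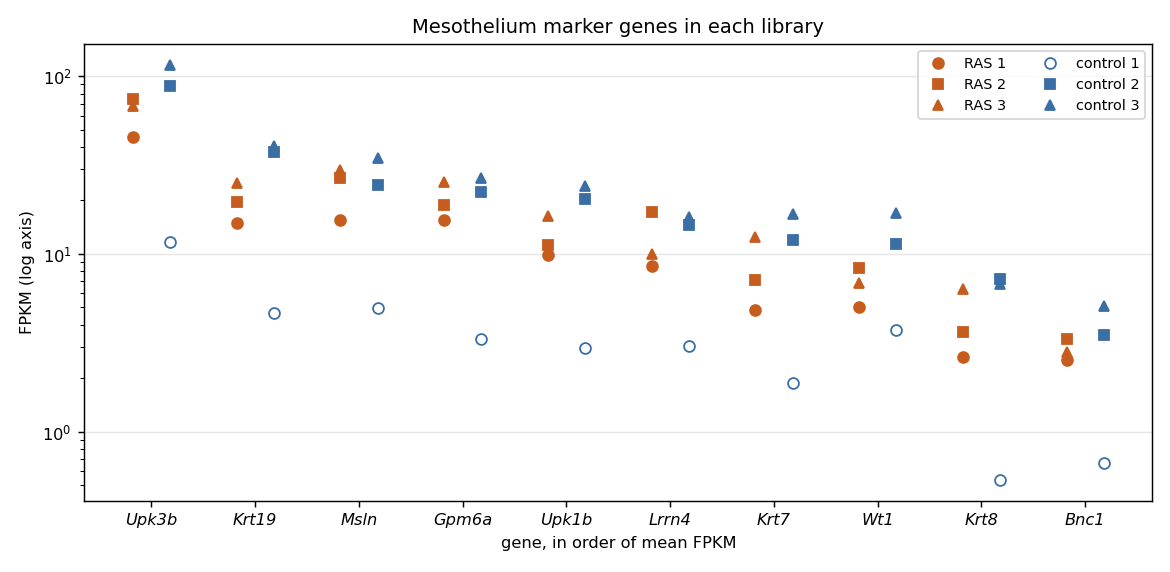
FPKM (log axis) of the 10 mesothelium genes, in order of mean level, in RAS 1 to 3 (left of each gene) and control 1 to 3 (right); each symbol is 1 library and the open circle is control 1. Control 1 lies below the other 5 libraries for every gene, and the RAS libraries lie between it and the highest control, apart from Lrrn4, whose highest point is RAS 2.

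The summed FPKM of the 10 genes was 125, 191 and 203 in RAS 1 to 3 and 37.4, 242 and 305 in control 1 to 3. The controls thus held both the lowest and the 2 highest sums, and the RAS libraries lay between them. The proportions among the genes moved less than the sum. Msln made up 12.4 to 14.7% of the sum with RAS and 10.1 to 13.3% in control, and Krt19 10.3 to 12.4% with RAS and 12.4 to 15.4% in control. Relative to its own size, the share of Wt1 moved most. It was 9.98% of the sum in control 1, against 3.38 to 4.39% with RAS and 4.68 and 5.62% in controls 2 and 3. In percentage points the share of Upk3b moved more, from 31.2% in control 1 to 39.2% in RAS 2.

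The 10 genes varied together over the 6 libraries. Pearson's r of log2(FPKM + 1) was positive for all 45 pairs, 0.76 to 1.00 with a median of 0.94, and 33 pairs were above 0.9. Spearman's rho ran from 0.60 to 1.00 (median 0.83). By an exact two-sided permutation test over the 720 pairings, adjusted over the 45 pairs, 44 pairs had an adjusted p under 0.05 for r and 19 for rho. The adjusted p over all 45 pairs ran from 0.0156 to 0.0639 for r and from 0.025 to 0.242 for rho. The pair that missed it for r was Wt1 with Gpm6a (r = 0.76, rho = 0.83, exact p = 0.0639 and 0.0583). The closest pair was Krt19 with Upk1b (r = 1.00, rho = 1.00). Pairs of genes outside the members were not tested, so these counts have no share over all genes beside them.

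The correlations were lower without control 1. With the 2 libraries farthest from the median of the first gene left out, which included control 1 for every pair, the median r was 0.78, 1 pair (Msln with Lrrn4) was at -0.04 and 44 were above 0. Over the 5 libraries without control 1, r was 0.38 to 0.99 (median 0.81), with 0 of 45 pairs past the adjusted threshold. The 5 libraries left without RAS 1, or without control 3, also gave 0 pairs, while 28 to 42 passed without each of the other 3 libraries. Yet the median r was 0.95 without RAS 1 and 0.94 without control 3. The relation thus kept its direction without control 1, but its test did not pass. With 5 libraries fewer pairings are possible than with 6, so a count of 0 pairs need not mean a lower r. Within groups, after each group's mean was taken off, r was 0.85 to 1.00 (median 0.97), with control 1 among the values. When values were permuted within groups, 0 pairs passed. Groups of 3 allow few such pairings, so the smallest p could pass adjustment only if many of the 45 pairs reached it. Over RAS 1 to 3 alone, r ran from -0.05 (Lrrn4 with Upk1b) to 1.00 (Gpm6a with Krt7). Each gene's r with the mean of the other 9 was 0.87 (Wt1) to 0.99 (Upk3b) over 6 libraries. Without control 1 it was 0.62 for Lrrn4, the loosest member, and 0.85 to 0.97 for the other 9. Over all 12606 genes with a mean of at least 1 FPKM, the median r with the members' mean was -0.15, and 0.09 without control 1.

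The order within the RAS group differed between genes. RAS 3 was the highest RAS library for Msln, Krt19, Upk1b, Gpm6a, Krt7 and Krt8, and RAS 2 for Upk3b, Lrrn4, Wt1 and Bnc1. RAS 1 was the lowest RAS library for all 10. Without control 1, the lowest r of the 45 pairs was that of Lrrn4 with Krt8 (0.38) and the highest that of Krt19 with Upk1b (0.99). Pairs with unlike orders could be close too, such as Upk3b with Krt19 (0.92).

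**Figure D2:**
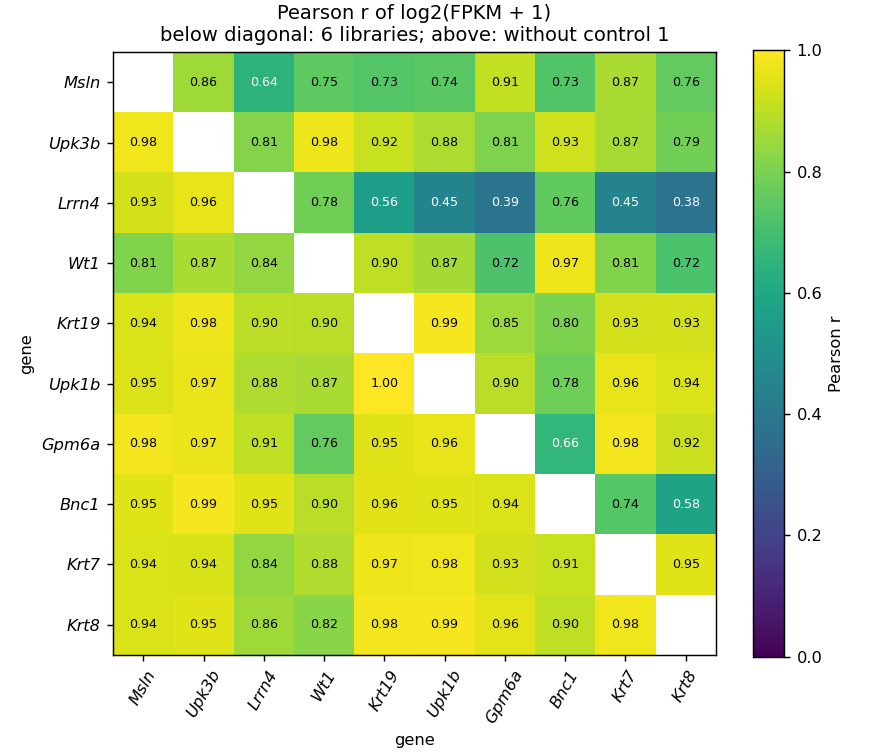
Pearson's r of log2(FPKM + 1) between mesothelium genes (both axes; colour and numbers give r), over 6 libraries below the diagonal and over 5 without control 1 above it. Below the diagonal r is 0.76 or more; above it, the row of Lrrn4 falls to 0.38.

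Control 1 lay far below the other libraries for these genes. The median of the other 5 libraries was 11.9 times the control 1 level for Krt8, 6.75 times for Gpm6a, 6.43 times for Upk3b, 5.36 times for Msln and 2.25 times for Wt1. Of the 10 genes, 10 were lowest in control 1, as were 13.9% of the 12606 genes tested. Of the 10, 9 lay in control 1 under 1/2 of every other library, against 1.08% of genes tested, and 7 under 1/3, against 0.484%. The control 1 value on the log2(FPKM + 1) scale, less the median of the other 5, had a median of -2.20 over the 10 genes and 0.08 over all genes tested.

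The same quantity had a median of -0.02 over 5 fat cell genes (Adipoq, Plin1, Fabp4, Lep and Cidec), -0.16 over 7 fibroblast and preadipocyte genes and 0.08 over 6 visceral depot genes. Of the fat cell genes 0 of 5, and of the fibroblast genes 2 of 7, were lowest in control 1, and none of these lay there under 1/2 of every other library. Pdgfra, a receptor of stromal progenitors, was at 15.1 to 23.2 FPKM with RAS and at 15.7, 20.1 and 25.4 FPKM in control 1 to 3. Dpp4, a surface peptidase of early progenitors, was at 7.52 to 14.7 FPKM with RAS and at 5.57, 13.7 and 13.2 FPKM in control 1 to 3, which put control 1 at 42.0% of the median of the other 5, below the share of Wt1. Dcn, the matrix proteoglycan decorin, was lowest in control 1 (493 FPKM, against 680 to 1196 in the other libraries). Skeletal muscle genes went the other way (median 2.43 over 3 tested genes). Acta1, skeletal muscle actin, was at 21.2, 59.6 and 34.3 FPKM with RAS and at 180, 134 and 66.8 FPKM in control, and made up most of the summed level of 5 listed genes (21.7 to 60.3 FPKM with RAS and 195, 135 and 68.5 FPKM in control 1 to 3). Tnni2, a fast muscle troponin, was at 0.135 to 0.405 FPKM with RAS and at 5.70, 0.225 and 0.521 FPKM in control 1 to 3. It was thus high in control 1 and not in the other controls. The part of muscle RNA in the low mesothelium values was not tested.

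**Figure D3:**
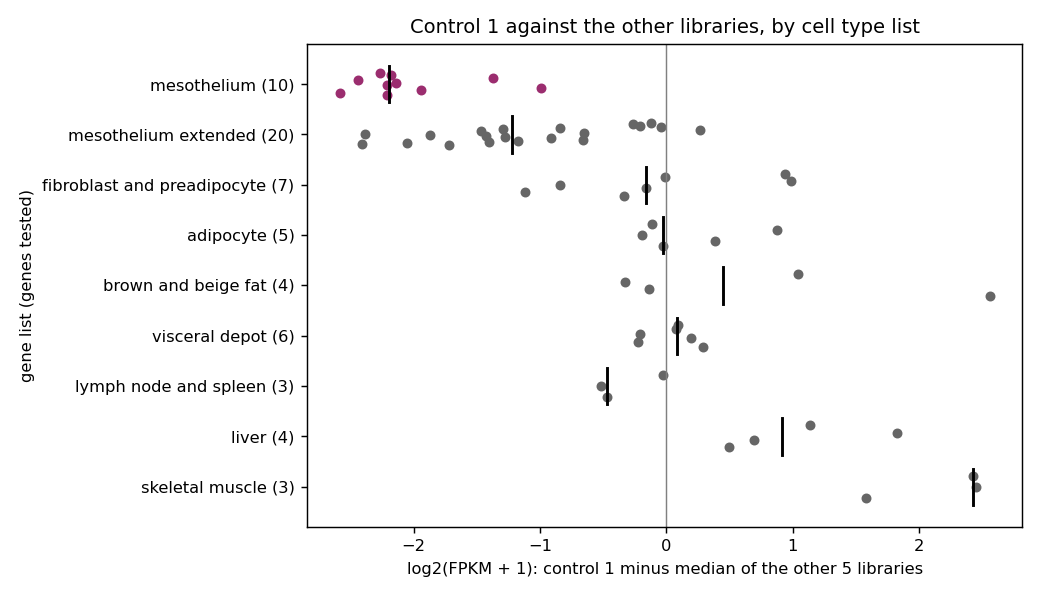
Each point is a gene tested: its log2(FPKM + 1) in control 1 minus the median of the other 5 libraries (x axis), by gene list (y axis, number of genes in brackets); black bars are list medians. The mesothelium genes centre on -2.20 and the further mesothelium genes on -1.22, while fat cell and visceral depot genes centre near 0.

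Between the groups no mesothelium gene passed the test. In limma's moderated test over 12606 genes, 0 genes had an adjusted p under 0.05 (0% called), and 486 higher and 808 lower genes had an unadjusted p under 0.05 (3.86 and 6.41%); none of the 10 was among them. The sign depended on the scale of the mean. On the log2(FPKM + 1) scale, 7 of the 10 members had a positive difference and 3 a negative one (median 0.11), against 43% positive and 57% negative over all genes tested (median -0.04). Of mean FPKM, 3 members (Msln, Lrrn4 and Gpm6a) had the higher value with RAS and 7 the lower, against 42.7% of genes tested with the higher value. Upk3b, Upk1b, Bnc1 and Krt8 had a lower mean FPKM with RAS and a positive log2 difference, because a log mean gives the low control 1 value more weight. Krt19 and Krt7, both at -0.02, were above 0 under median-ratio scaling. Upk3b averaged 62.7 ± 15.5 FPKM with RAS and 72.2 ± 54.2 FPKM in control (SD, n = 3 each), with a difference of 0.29 ± 0.78 on the log2 scale (SE, limma adjusted p = 0.920). Gpm6a had the highest log2 difference, 0.54 ± 0.66 (adjusted p = 0.798), and Wt1 the lowest, -0.41 ± 0.46 (adjusted p = 0.777). The other members lay between -0.02 (Krt19, Krt7) and 0.45 (Msln). For 0 of the 10 genes were the FPKM ranges of the groups apart, against 17.9% of genes tested. The SD of the controls was above that of the RAS libraries for each of the 10 genes.

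Without control 1 all 10 differences were negative. The median log2 difference was -0.70, against -0.02 over all genes tested, where 54.2% of differences were negative and 45.8% positive. Krt19 was at 19.9 ± 5.06 FPKM with RAS (SD, n = 3) and at a mean of 39.0 FPKM in controls 2 and 3, with a difference of -0.97 ± 0.21 on the log2 scale (SE, limma adjusted p = 0.267). Wt1 differed by -0.97 ± 0.24 (adjusted p = 0.293), Upk1b by -0.81 ± 0.22 (adjusted p = 0.310), Upk3b by -0.72 ± 0.25 (adjusted p = 0.386) and Bnc1 by -0.44 ± 0.18 (adjusted p = 0.456). These 5 had an unadjusted p under 0.05, as did 5.54% of genes tested on the lower side and 5.31% on the higher side. Of the 10, 0 passed the adjusted threshold, against 0.0159% of genes tested. Msln (-0.32 ± 0.30) and Gpm6a (-0.31 ± 0.21) had the smallest differences. Every RAS library lay below controls 2 and 3 for 6 of the 10 genes (Upk3b, Wt1, Krt19, Upk1b, Bnc1 and Krt8), against 17.5% of genes tested. Leaving out control 1, the lowest library for all 10 genes, moves every difference down by construction. Leaving out control 3 instead, the highest library for 8 of the 10, gave 10 of 10 positive differences (median 0.51), with 0 of the 10 at an unadjusted p under 0.05. With all libraries in but weighted by limma's sample weights, 0 of 10 differences were positive (median -0.46), and without RAS 3 there were 5 of 10 (median -0.02). The direction of the members between the groups thus turned with single libraries.

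**Figure D4:**
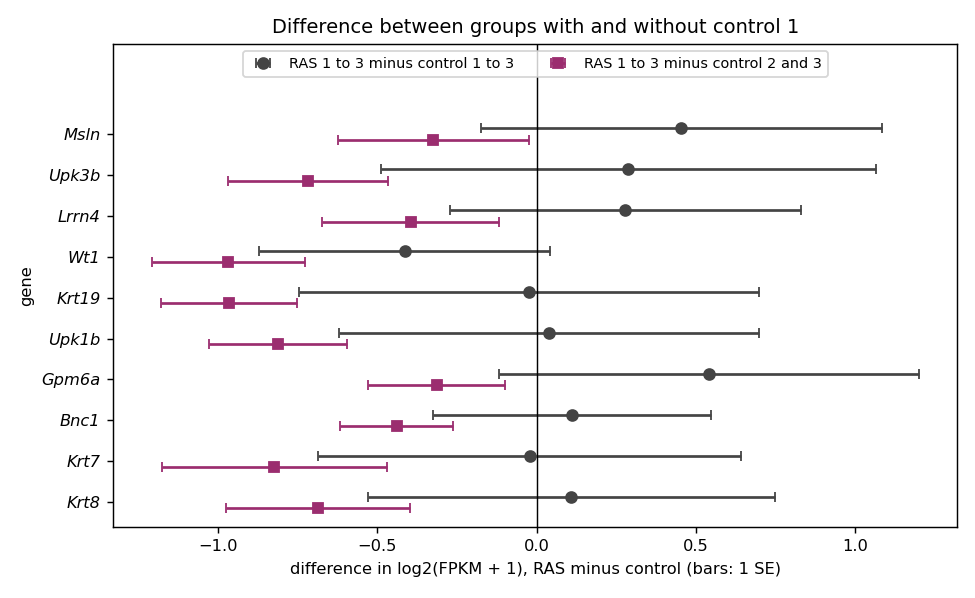
Difference in log2(FPKM + 1), RAS minus control, for each mesothelium gene (bars are 1 SE), with all 6 libraries (circles) and without control 1 (squares). With all libraries 7 of 10 points lie above 0 with wide bars; without control 1 all 10 lie below 0.

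A second list of 22 genes described in mesothelium was examined, of which 20 were tested; it holds genes shared with stroma, such as C3 and Efemp1. Of the 20, 17 were lowest in control 1, against 13.9% of genes tested. There 11 of the 20 lay under 1/2 of every other library, against 1.08%. Nkain4, a small membrane protein that binds the sodium pump, was at 15.6, 20.4 and 31.1 FPKM with RAS and at 3.89, 25.0 and 42.5 FPKM in control. Muc16, the mucin bound by mesothelin, was at 4.09, 6.09 and 7.39 FPKM with RAS and at 1.42, 6.97 and 16.1 FPKM in control. Rspo1, a secreted enhancer of Wnt signalling, was at 16.2, 20.7 and 24.1 FPKM with RAS and at 4.90, 23.4 and 31.9 FPKM in control. In these 3 genes RAS 1 was the next lowest library after control 1, and control 3 was the highest. Krt18, the type I partner of keratin 8, was at 1.71, 2.24 and 4.31 FPKM with RAS and at 0.422, 2.76 and 3.91 FPKM in control.

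In the group comparison, 12 of these 20 had a positive log2 difference and 8 a negative one (median 0.02), while mean FPKM was higher with RAS for 7 and lower for 13. Over all genes tested, 43% had a positive log2 difference and 42.7% a higher mean FPKM with RAS. Of the 20, 0 passed the adjusted threshold, as did 0% of genes tested. Slpi and Cldn15 (positive) and Bnc2 (negative) had an unadjusted limma p under 0.05. Over all genes tested, 3.86% on the higher side and 6.41% on the lower side did. Without control 1, 2 differences were positive and 18 negative (median -0.38), against 45.8% and 54.2% of genes tested, and 0 passed. There 6 of the 20 were lower and 1 higher at an unadjusted limma p under 0.05, against 5.54% and 5.31% of genes tested. The values of Slpi and Bnc2 are given because they stood out once seen. Slpi, a secreted protease inhibitor, had the highest difference of the list: 15.4, 20.3 and 34.3 FPKM with RAS and 2.15, 6.72 and 14.8 FPKM in control, with a difference of 1.67 ± 0.56 on the log2 scale (SE, limma adjusted p = 0.405), and 1.06 without control 1. Every RAS library was above every control library for Slpi, and the ranges of the groups were apart, in either direction, for 17.9% of genes tested. Bnc2, the paralog of Bnc1, was at 2.70, 2.22 and 1.86 FPKM with RAS and at 2.59, 4.45 and 4.63 FPKM in control (log2 difference -0.56 ± 0.20, adjusted p = 0.425) and was not lowest in control 1.

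Outside the 10 members, the named genes whose pattern over the 6 libraries was most like the members' mean were Rnf113a1, Atp1b1, Megf6, Ptgis, Cxadr, Cys1, Sorbs3 and Pld2, with r of 0.99 to 1.00, and 0.95 to 1.00 over the 5 libraries without control 1. The 8 genes were picked by r over libraries that include these 5, so the second range is no separate check. Of 12596 other genes, 70 (0.556%) had r above 0.95 over the 6 libraries. Some of the 8 varied far less than the members: the median of the other 5 libraries was 1.25 times control 1 for Pld2, a phospholipase D, and 1.55 times for Sorbs3, an adhesion adaptor. Cys1, the cilium protein cystin, was at 4.36, 4.99 and 6.42 FPKM with RAS and at 1.03, 8.28 and 10.4 FPKM in control. Cxadr, a junction protein used as a virus receptor, averaged 3.64 ± 0.582 FPKM with RAS and 3.64 ± 2.51 FPKM in control (SD, n = 3 each), with control 1 at 0.887 FPKM. Ptgis, prostacyclin synthase, was at 16.4, 23.4 and 28.0 FPKM with RAS and at 7.39, 28.0 and 40.7 FPKM in control. Atp1b1, the beta chain of the sodium pump, was at 6.50, 9.07 and 8.52 FPKM with RAS and at 3.13, 9.87 and 12.0 FPKM in control.

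Uroplakins and keratins are also made by bladder lining, so the other members of those families were read in each library. Upk2, the uroplakin that pairs with Upk1a, was at 3.47 FPKM in RAS 3 and listed at 0 in the other 5 libraries. Upk3a reached 3.23 FPKM in RAS 3 and at most 0.0772 FPKM elsewhere. Upk1a reached 2.06 FPKM in RAS 3, with the other libraries at 0.0706 to 0.416 FPKM. Krt20 (0.682 FPKM) and Krt5 (0.414 FPKM), keratins of the surface and the base of that lining, were also highest in RAS 3. These genes were low beside Upk1b and Upk3b but were seen together in a single library, RAS 3. Among RAS libraries, RAS 3 was the highest for Msln and Gpm6a as well as for Krt19, Krt7, Krt8 and Upk1b. RAS 2 was the highest for Upk3b, Lrrn4, Wt1 and Bnc1. Without RAS 3, the log2 difference between groups was -0.16 for Upk1b and -0.17 for Krt8, against 0.04 and 0.11 with all libraries. RAS 3 was the highest RAS library for both, so leaving it out lowers them by construction. The other 8 members kept their sign. Msln (0.28), Upk3b (0.22), Lrrn4 (0.37), Gpm6a (0.36) and Bnc1 (0.12) stayed positive. Wt1 (-0.43), Krt19 (-0.20) and Krt7 (-0.35) stayed negative. Without RAS 3 and control 1 together, all 10 log2 differences were negative (median -0.88) and 0 passed the adjusted threshold. Over all genes tested the median there was -0.03. An unadjusted limma p under 0.05 was reached by 7 of the 10 members and by 1740 of 12606 genes tested. Leaving out control 1, the lowest library for all 10, again lowers the differences by construction, and this setting was added after seeing the data. The part of such cells in the RAS 3 values was not tested.

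**Figure D5:**
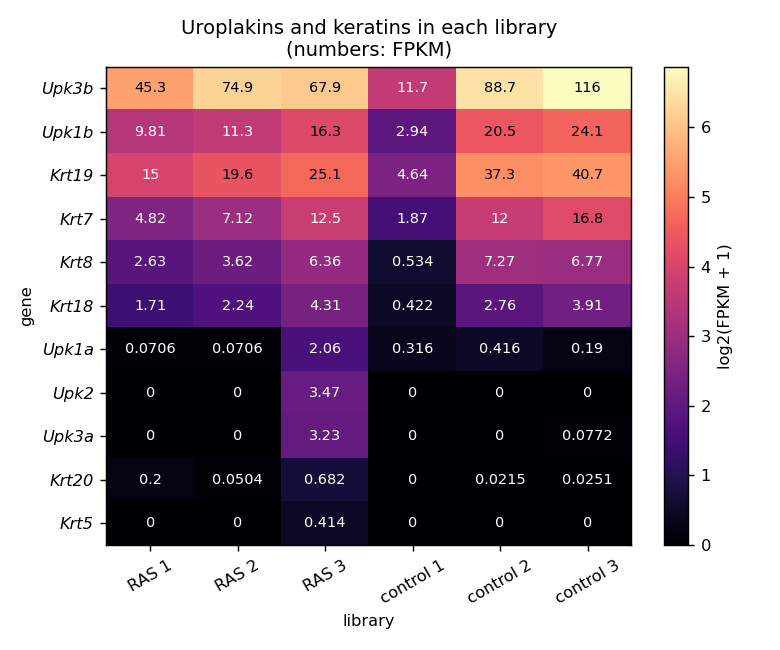
Level of uroplakin and keratin genes (rows) in each library (columns), as colour on the log2(FPKM + 1) scale and as FPKM in numbers. Upk3b, Upk1b and the simple keratins are seen in all 6 libraries and lowest in control 1, while Upk2, Upk3a, Upk1a, Krt20 and Krt5 are highest in RAS 3.

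Markers of other tissues were read in the same libraries. Summed over 6 liver genes, control 3 was highest (160 FPKM, against 9.69 to 26.4 FPKM in the other libraries), with Alb, serum albumin, at 6.51 to 10.5 FPKM with RAS and at 14.6, 8.08 and 88.4 FPKM in control 1 to 3. Control 3 was also the highest library for 8 of the 10 members, and the part of liver RNA in it was not tested. Brown and beige fat genes were highest in RAS 3 (Ucp1 at 163 FPKM, against 0.0343 to 33.8 FPKM elsewhere). Foxl2 and Amh of the ovary were at 0 to 0.0535 and 0 to 0.227 FPKM. The milk protein gene Lalba was at 0 to 0.196 FPKM. Ltf, lactoferrin, was at 2.21 FPKM in RAS 3 and at most 0.0570 FPKM elsewhere. Cd79a, a B cell receptor chain found in lymph node, was at 2.11, 2.60 and 4.11 FPKM with RAS and at 1.99, 4.91 and 3.29 FPKM in control, so it was also lowest in control 1. Ms4a1, a B cell surface protein, was at 0.912 to 1.20 FPKM with RAS and at 1.15, 1.99 and 1.79 FPKM in control 1 to 3, and was not lowest there. The r of single genes with the members' mean had a median of 0.97 for the members, which are part of that mean. It was 0.92 for the 20 further mesothelium genes tested and 0.73 for 3 lymph node and spleen genes. For 7 fibroblast and preadipocyte genes it was 0.29, and for 5 fat cell genes -0.30. Without control 1 these medians were 0.92, 0.74, 0.66, 0.52 and -0.45, in the same order. The part of lymph node RNA in the members' values was not tested.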

How the data were processed

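Adipose tissue RNA of 3 RAS-fed and 3 control samples was analysed from the authors' deposited gene table. Its FPKM values, normalized to transcript length and library depth by the authors, came from TopHat2 2.0.9 and Cufflinks 2.1.1, per the submitters' processing notes; which name no annotation and no role for each tool. The count columns of the table, deposited by the authors, are a scaled signal and not whole reads, so no count model was used; reads per gene were taken as the signal over its commonest positive value. Columns named DH are the RAS group, per the labels' protocols, and HC columns were taken as control by elimination. A further 4 value columns were not used. Loci overlapped the GRCm38 gene for 99.7% of 18403 matched genes.

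Log2(FPKM + 1) was fitted with limma 3.58.1 (R 4.3.3; eBayes with trend, two-sided, RAS minus control) over 12606 genes with a mean of at least 1 FPKM, and p-values were adjusted by Benjamini-Hochberg (threshold 0.05); the script was tested on simulated data. The pseudocount understates the change of low genes. Pairs of members were compared by Pearson's r and Spearman's rho with exact permutation tests. Same-numbered samples were not taken as pairs. Genes named are the 10 members, the 8 genes most like them, up to 4 tested genes per marker list in list order, genes of other epithelia, and Ucp1, Alb and Acta1; others were chosen after their values were seen. Members and lists were chosen with earlier results of these data known. Results for some marker genes of other tissues are not reported here.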

Additional observations from a re-analysis of the deposited data

How the results depend on the processing

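No member passed the adjusted threshold in any setting run. The number of genes past it over the whole table was 0 with all 6 libraries, 0 to 2 with each library left out in turn (2 without control 1, 1 without RAS 1 or RAS 2), and 3 without control 1 and RAS 3 together, a setting added after seeing the data. Of the 10 members, 7 had a positive log2 difference (median 0.11), 0 to 10 with each library left out (0 without control 1, 10 without control 3), 9 with a pseudocount of 0.1 (median 0.30), size factors (0.13) or the scaled signal (0.33), 0 with sample weights, and 0 without control 1 and RAS 3 together. Correlated pairs numbered 44 with all libraries, 0 to 42 with each library left out, and 0 within groups. Fewer pairings are possible with a library left out, and only few within groups. With each library left out, the log2 difference ranged from -0.32 to 0.97 for Msln, -0.72 to 0.89 for Upk3b, -0.39 to 0.65 for Lrrn4, -0.97 to 0.0007 for Wt1, -0.97 to 0.48 for Krt19, -0.81 to 0.52 for Upk1b, -0.31 to 1.03 for Gpm6a, -0.44 to 0.50 for Bnc1, -0.82 to 0.49 for Krt7 and -0.69 to 0.53 for Krt8. Sample weights turned Msln (-0.17), Upk3b (-0.39), Lrrn4 (-0.10), Upk1b (-0.59), Gpm6a (-0.089), Bnc1 (-0.24) and Krt8 (-0.53). Leaving out control 1 and RAS 3 together turned Msln (-0.50), Upk3b (-0.79), Lrrn4 (-0.31), Upk1b (-1.01), Gpm6a (-0.49), Bnc1 (-0.43) and Krt8 (-0.97). Krt19 and Krt7, near 0, turned to 0.016 and 0.048 with a pseudocount of 0.1, to 0.0155 and 0.012 with size factors, and to 0.033 and 0.062 on the scaled signal, and Krt7 to 0.0018 with quantile normalization; Krt8 moved to 0.34 with the smaller pseudocount and to 0.39 on the scaled signal, from 0.11. The cause was not tested. The replicate block gave 0 genes past the threshold and 1663 at an unadjusted p under 0.05, against 1294 without it; with 1 sample of each group in a block it cannot move a member's difference. Deviations of same-numbered samples correlated at 0.178, 0.0960 and 0.219, so the numbers were not taken to pair the samples. Bnc1 and Krt8 did not enter the setting with a mean of at least 5 FPKM. The edgeR test was not run, because the count columns are not whole reads. Depth limits Krt8 most, whose control 1 value rests on 17 reads.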
